A study of Homo sapiens with 18 samples.

Results

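DEAD-box and DEAH-box RNA helicases were followed in SH-SY5Y cells, a human neuroblastoma line used as a dopaminergic neuron model, after an acute exposure to cocaine. The members were 41 genes fixed by name (30 of the DEAD-box and 11 of the DEAH-box family), and every probe set that the platform annotation assigned to 1 of them alone was taken, which gave 91 probe sets for 37 genes of the 54675 probe sets on the Affymetrix U133 Plus 2.0 array. DDX18, DDX39B, DDX47 and EIF4A1 had no such probe set here and were not analysed singly. All cells had been differentiated with 10 µM retinoic acid for 7 days, kept without it for 24 h and then exposed for 30 min to 5 or 1 µM cocaine or to 0 µM (untreated). They were collected 6 or 24 h later. Each of the 6 groups held 3 arrays, 18 in all, and each array carried RNA pooled from 3 dishes of this single cell line, so p-values measure the spread between pools of dishes. The values are log2 signals (1 unit is a doubling) that the authors normalized separately at 6 h and at 24 h, so doses were compared within a time and a level at 6 h was never set against a level at 24 h.

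DEAD-box and DEAH-box proteins use ATP to open RNA duplexes or to remodel RNA-protein complexes, and are named after a motif of their helicase core. DEAD-box enzymes open short duplexes locally, whereas DEAH-box enzymes usually move along the RNA strand. Together they drive the steps of the splicing cycle, ribosome assembly in the nucleolus, the scanning of messenger RNA leaders by the small ribosomal subunit and the storage or decay of messenger RNAs. Neurons also carry several of them in RNA granules that hold messenger RNAs away from translation.

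The array medians lay between 4.96 and 5.01 at 6 h and between 5.30 and 5.35 at 24 h. Of 9 measured genes of neuroblastoma identity, 8 (GAP43 among them) were above the signal threshold of the study, log2(40) or 5.32, on all 18 arrays, and TH, the enzyme that starts dopamine synthesis, was below it on all of them (3.35 to 4.0). None of 8 markers of other cell types was above the threshold on all arrays, and 5 were below it on all. MYOD1 read highest of them, between 5.25 and 5.85, and was above the threshold on most arrays. Untreated arrays 2 and 3 at 6 h stood apart by high retinoic acid response genes: CYP26A1, which breaks down retinoic acid, read 10.7 and 11.0 on them, against 5.01 on untreated array 1 and at most 5.61 on the cocaine arrays of that time. At 24 h untreated array 3 read 9.55, against at most 6.31 on the other arrays of that time. Their part in the results was not tested, but the main counts and calls at 6 h are also given without them.

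The first comparison asked which helicase transcripts respond to an acute exposure. At 6 h after exposure to 5 µM cocaine, a small number of helicase probe sets differed from untreated cells, and the largest differences were upward. DDX17, a splicing helicase and transcriptional coregulator, was higher at 2 probe sets, DHX29, a helicase of translation initiation, and DDX24, a nucleolar helicase, at 1 each, and DHX30, a helicase of mitochondrial RNA granules, was lower at 1. Of the 91 probe sets, 75 from 36 genes had a mean above log2(40) over the 9 arrays of 6 h and were tested. limma called 4 of the 75 higher, against 1.56% of all 22461 probe sets tested, and 1 lower, against 1.42% of all, at an adjusted p under 0.10. Counted by gene, 3 of the 36 genes had a probe set that rose, against 2.58% of all genes, and 1 had a probe set that fell, against 2.47%. In all, 19 of the 75 had an unadjusted p under 0.05, against 17.2% of all probe sets. The signs of the 75 changes were divided, 36 positive and 39 negative, with a median of -0.01 on the log2 scale, against -0.02 over all probe sets. The median standard error of a helicase difference was 0.071.

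Arrays with the same replicate number deviated together, and with the number as a block the same comparison called 10 helicase probe sets higher, against 7.75% of all, and 8 lower, against 10.9% of all. These 18 probe sets belonged to 15 genes and included the 5 called without the block. On 9 of the 75 probe sets all 5 µM arrays were above all untreated arrays, against 8.09% of all probe sets, and on 12 all 5 µM arrays were below, against 13.1%. The number called hung on single arrays. Without untreated array 1 it was 11, without untreated array 2 it was 0 and without untreated array 3 it was 2. It was 2 without 1 µM array 2, 1 without 5 µM array 1 and 0 without either 5 µM array 2 or array 3. With untreated array 1 as the only untreated array, and its spread assumed to be that of the other doses, 0 helicase probe sets and 0 of all probe sets were called. The 5 probe sets kept their direction there, with 1.49 for DDX17 230180_at and 0.82 for 213998_s_at, 0.83 for DHX29, 0.33 for DDX24 and -0.17 for DHX30, at limma adjusted p-values of 0.28, 0.179, 0.214, 0.257 and 0.397 in that order.

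None of the 5 called probe sets was the brightest probe set of its gene. Tested on the brightest probe set alone, 0 of the 36 genes passed (limma, 6 at an unadjusted p under 0.05), and 14 of the 36 changes were positive. Over all 11943 brightest probe sets in the fit without the block, 248 were called, 1819 had an unadjusted p under 0.05 and 4644 changes were positive. With the replicate block, the 39 other probe sets gave 10 higher and 4 lower calls and the 36 brightest ones gave 0 higher and 4 lower. Over the whole array the same split was 12.4% higher and 8.42% lower among 9497 other probe sets, and 4.07% higher and 12.8% lower among 11943 brightest ones. Probe sets of 1 gene read different stretches of its transcripts, and where they lie was not analysed here. A probe set whose identifier ends in _s_at or _x_at may also bind transcripts of more than 1 gene.

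**Figure D1:**
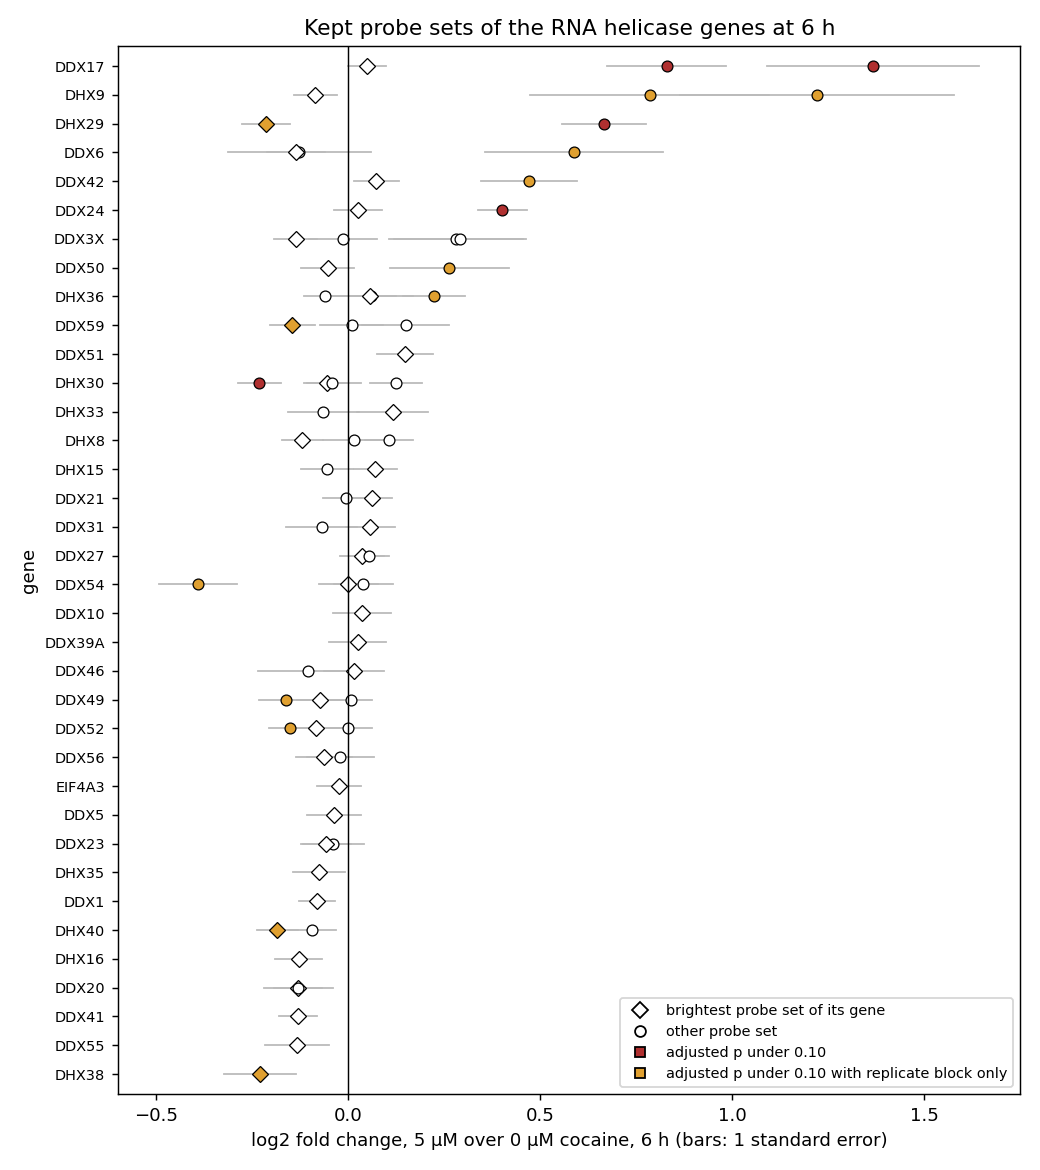
The plot gives the log2 fold change of 5 µM over 0 µM cocaine at 6 h (horizontal axis, with 1 standard error) for each of the 75 tested probe sets, by gene (vertical axis). Diamonds are the brightest probe set of a gene, circles the others, red marks an adjusted p under 0.10 and orange one reached only with the replicate block. The upper right holds only circles, led by DDX17 at 1.37 and DHX9 at 1.22, and the diamonds lie between -0.23 and 0.15.

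DDX17 was measured by 5 probe sets, and they did not move together. It encodes the p72 helicase, a close relative of DDX5 that takes part in splicing, in microRNA processing and in transcription. Probe set 230180_at read 7.43, 6.72 and 6.85 on the 5 µM arrays at 6 h, against 5.51, 5.66 and 5.73 on the untreated arrays. Every 5 µM array was above every untreated array, by 1.37 on average (SE 0.276, limma adjusted p = 0.0692). With the replicate block its adjusted p was 0.0268. The 1 µM arrays read 6.94, 6.54 and 5.81, so that array 1 lay within the 5 µM range, array 2 below it and array 3 just above the untreated arrays.

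Probe set 213998_s_at of DDX17 read 5.78, 5.80 and 5.69 at 5 µM, against 4.94, 4.56 and 5.29 in untreated cells. The groups did not overlap, and the difference was 0.83 (SE 0.155, limma adjusted p = 0.061). This probe set entered the test through its cocaine arrays, because its untreated mean of 4.93 lay under the threshold of 5.32. Without a signal filter its adjusted p was 0.0636 and that of 230180_at was 0.073. The 1 µM arrays lay between the other doses, at 5.40, 5.37 and 5.27.

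The brightest DDX17 probe set, 208718_at, read 11.66, 11.72 and 11.76 at 5 µM, against 11.62, 11.69 and 11.68 in untreated cells. These ranges overlapped, and the difference of 0.05 (SE 0.049) was not past the threshold (limma adjusted p = 0.657). The remaining probe sets were too dim at 6 h to be tested. 208151_x_at read 5.08, 5.08 and 5.14 at 5 µM, against 5.08, 4.78 and 4.82 untreated, and 208719_s_at read 5.04, 4.74 and 4.92, against 4.95, 4.83 and 4.84. Leaving out single arrays kept the change of 230180_at between 1.15 and 1.51, but its adjusted p passed 0.10 without untreated array 2 (0.20) or 3 (0.144), without 1 µM array 2 (0.113) and without 5 µM array 1 (0.160), 2 (0.173) or 3 (0.188). That of 213998_s_at did so without untreated array 2 (0.136), without 1 µM array 2 (0.102) and without 5 µM array 1 (0.145), 2 (0.201) or 3 (0.188).

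**Figure D2:**
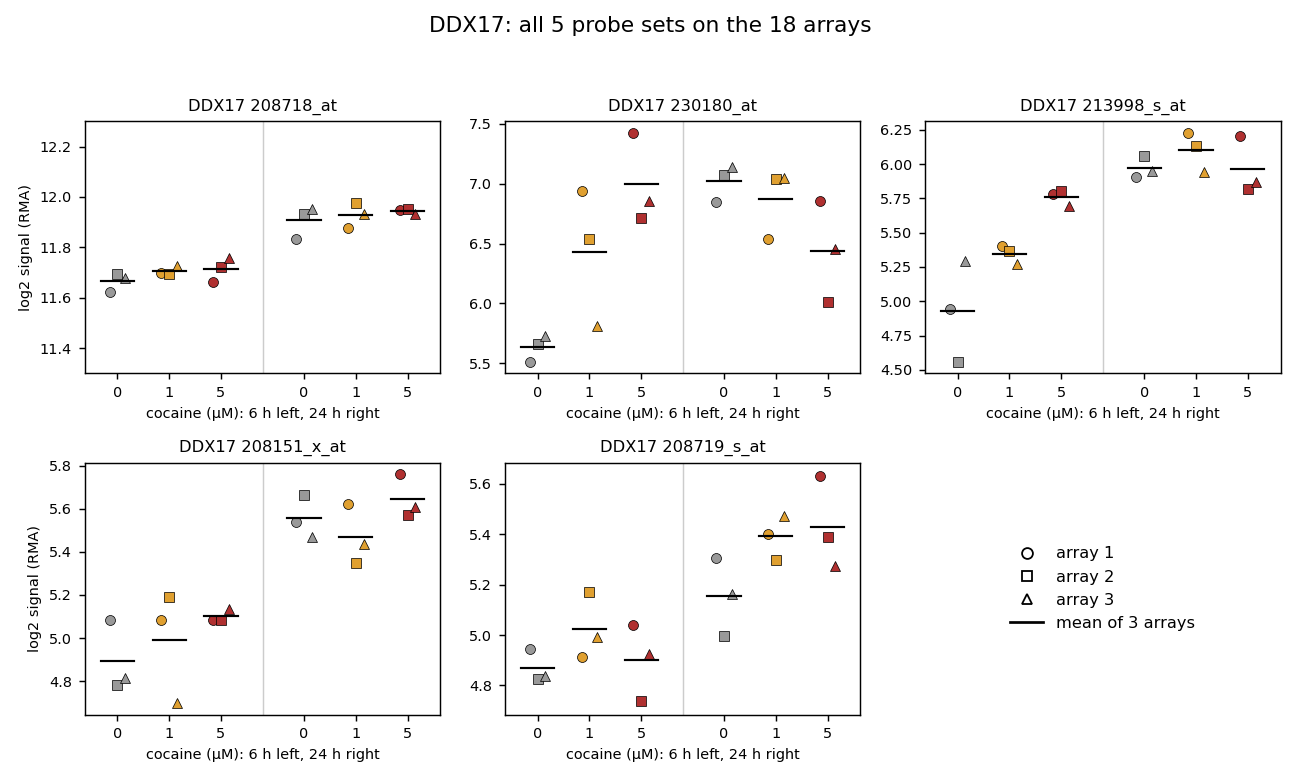
The log2 signal (vertical axes) of the 5 DDX17 probe sets is shown on each array by cocaine dose in µM (horizontal axes), with 6 h on the left and 24 h on the right of each panel, which were normalized apart. Symbols are array numbers and lines are means of 3 arrays. At 6 h 230180_at and 213998_s_at stepped up with dose in their means while 208718_at stayed between 11.62 and 11.76.

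The inequality can be put as 1 value per array, the mean of the other tested probe sets of a gene minus its brightest. For DDX17 this averaged -5.33 ± 0.239 on the 5 µM arrays and -6.38 ± 0.208 on the untreated arrays (SD, n = 3 each), a difference of 1.05. The 2-sided exact permutation p was 0.1, the smallest that 3 arrays against 3 allow. The signal filter kept 213998_s_at through its cocaine arrays and left out 208151_x_at and 208719_s_at, and with these included the difference was 0.560. Within the same array numbers the difference was 1.34, 1.12 and 0.687 for numbers 1, 2 and 3. The difference was 1.09 for DHX9, 0.88 for DHX29, 0.40 for DDX42 and 0.38 for DDX24. Against untreated array 1 alone it was 1.06 for DDX17, 0.41 for DHX9, 1.12 for DHX29, 0.05 for DDX42 and 0.29 for DDX24. All 25 helicase genes with several tested probe sets had a median of 0.0187, with 17 positive, against 0.0536 over all 5695 such genes, of which 3566 were positive and whose 5th and 95th percentiles were -0.229 and 0.417.

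The same measure averaged over all genes was also higher at 5 µM, at -1.62 ± 0.00814 against -1.69 ± 0.0299 in untreated arrays (difference 0.070, exact permutation p = 0.1). The ACTB control probe sets for the 3′ and 5′ ends of the transcript, whose difference widens when RNA is degraded or copied less far, differed by 0.517 ± 0.0227 at 5 µM and by 0.853 ± 0.286 in untreated arrays (exact permutation p = 0.1, n = 3 each). Those of GAPDH differed by 0.210 ± 0.028 at 5 µM and by 0.232 ± 0.0207 in untreated arrays (exact permutation p = 0.3, n = 3 each). The part of RNA quality in the DDX17, DHX9 and DHX29 values was not tested.

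DHX29, which binds the small ribosomal subunit and lets it scan structured messenger RNA leaders, was measured by 2 probe sets that moved in opposite directions. The dimmer, 212649_at, read 6.45, 6.10 and 6.36 at 5 µM, against 5.47, 5.64 and 5.80 in untreated cells. It rose by 0.67 (SE 0.108, limma adjusted p = 0.047) with no overlap. The brighter, 212648_at, read 8.69, 8.55 and 8.62 at 5 µM, against 8.91, 8.80 and 8.80 in untreated cells. All its 5 µM arrays were below all untreated arrays, by -0.21 (SE 0.062). This passed the threshold with the replicate block and not in the main fit without it (limma adjusted p = 0.141 without the block and 0.0623 with it). The call at 212649_at was lost without untreated array 2 (0.161) or any of the 5 µM arrays (0.122, 0.108 and 0.185 for arrays 1, 2 and 3).

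DDX24, counterpart of the yeast helicase Mak5 of large ribosomal subunit assembly, rose at 200702_s_at. This probe set read 9.39, 9.45 and 9.54 at 5 µM, against 9.14, 9.00 and 9.05 in untreated cells, a difference of 0.40 (SE 0.064, limma adjusted p = 0.0441). The groups lay clear of each other. Its brighter probe set 200694_s_at read 9.82, 9.90 and 9.99 at 5 µM, against 9.86, 9.85 and 9.92 in untreated cells, which overlapped. The call at 200702_s_at was lost without untreated array 2 (adjusted p = 0.156) or 3 (0.119) and without 5 µM array 2 (0.157) or 3 (0.178).

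DHX30, which is needed for mitochondrial ribosome assembly, was the only helicase gene with a decrease called for 5 µM at 6 h in the main fit without the block. Probe set 204355_at read 8.84, 8.76 and 8.87 at 5 µM, against 9.00, 9.04 and 9.13 in untreated cells, and fell by 0.23 (SE 0.056, limma adjusted p = 0.0988). The groups did not overlap, but the value sat at the threshold. It stayed past it without untreated array 1 (0.0516) and was between 0.115 and 0.291 when any other array was left out. It was 0.129 without a signal filter, and the call was also lost after quantile normalization. The other 3 tested DHX30 probe sets changed by -0.06 (212674_s_at, the brightest), 0.12 and -0.04 and were not called.

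**Figure D3:**
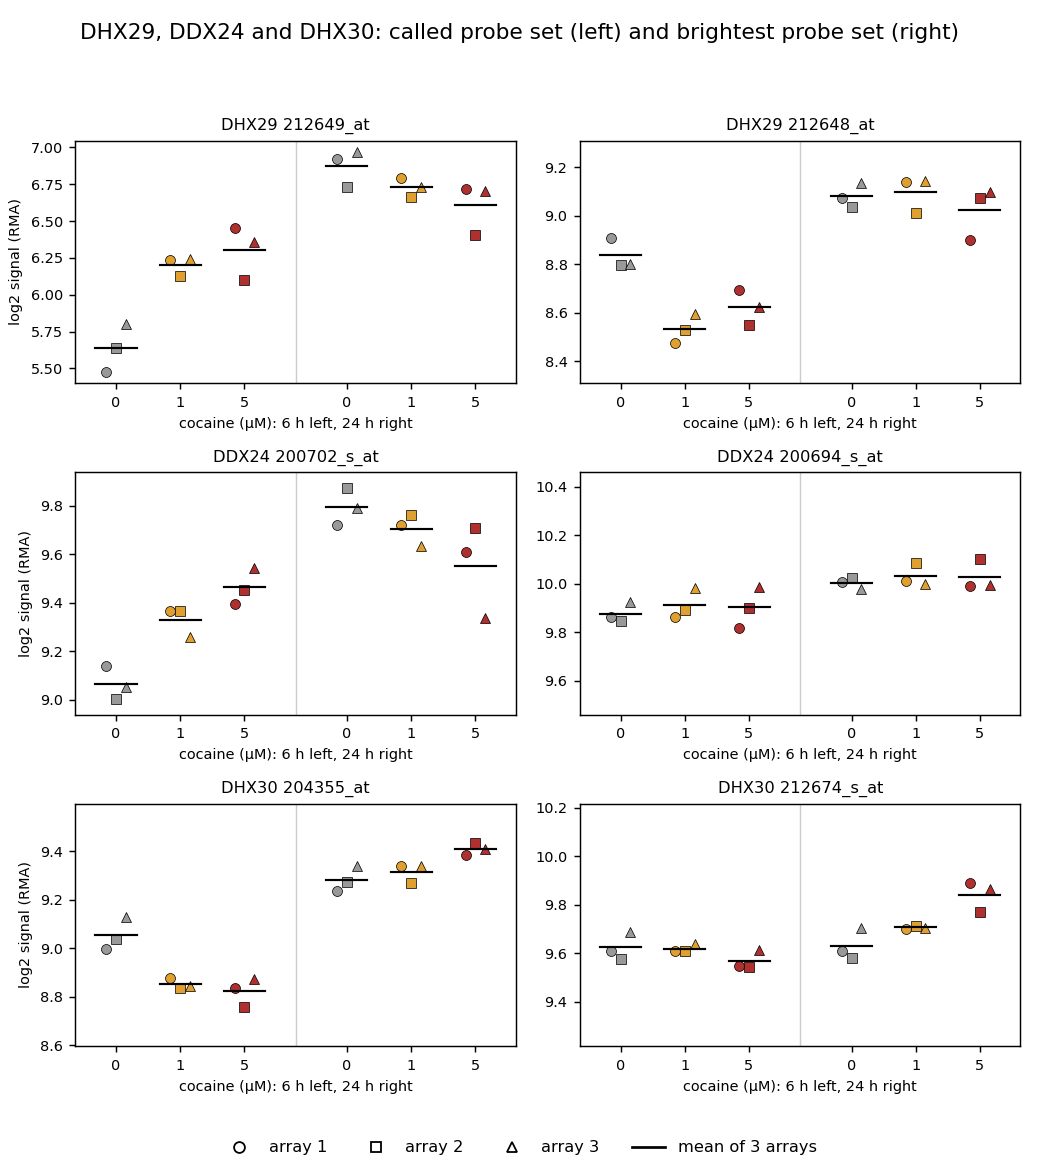
The log2 signal (vertical axes) of DHX29, DDX24 and DHX30 is shown on each array by cocaine dose in µM (horizontal axes), with 6 h on the left and 24 h on the right of each panel, which were normalized apart. The probe set called at 6 h is on the left of each row and the brightest of the gene on the right; symbols are array numbers and lines are means of 3 arrays. At 6 h DHX29 212649_at is higher at 5 µM than in untreated cells while 212648_at is lower.

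The following genes were picked after their values were seen. DHX9, also called RNA helicase A, unwinds duplexes formed by paired repeats in transcripts and acts in transcription and translation. Its probe set 212105_s_at read 7.48, 7.16 and 7.01 at 5 µM, against 6.73, 5.86 and 5.39 in untreated cells. The lowest 5 µM array was above the highest untreated one, but the untreated arrays spread over more than 1 log2 unit. The difference of 1.22 (SE 0.357) was called with the replicate block and not in the main fit (limma adjusted p = 0.144 without the block and 0.0185 with it). Same-numbered arrays stood in the same order in both groups, array 1 highest. The second DHX9 probe set, 212107_s_at, read 8.90, 8.73 and 8.49 at 5 µM, against 8.61, 7.74 and 7.41 in untreated cells, with untreated array 1 inside the 5 µM range. Its difference was 0.78 (limma adjusted p = 0.252 without the block and 0.034 with it). DHX9 was also called without the block with all 18 arrays in 1 fit and with untreated array 1 left out. Without untreated arrays 2 and 3, which had the high retinoic acid response genes, the differences were 0.48 at 212105_s_at and 0.09 at 212107_s_at (limma adjusted p = 0.647 and 0.933). The brightest, 202420_s_at, changed by -0.09 and was not called in either fit.

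DDX42, which associates with the U2 snRNP of the spliceosome, read 7.62, 7.71 and 7.76 at 1559954_s_at in 5 µM arrays, against 7.46, 7.01 and 7.20 in untreated arrays. The difference of 0.47 was past the threshold with the block and not in the main fit (limma adjusted p = 0.12 without the block and 0.0714 with it). DDX6, a helicase of translational repression and decapping, read 6.11, 5.95 and 5.91 at 204909_at in 5 µM arrays, against 5.85, 5.34 and 5.01 in untreated arrays. Its difference of 0.59 was likewise called with the block and not in the main fit (limma adjusted p = 0.249 without the block and 0.0624 with it). Both genes were also called without the block when untreated array 1 was left out, and DDX42 with all 18 arrays in 1 fit. Without untreated arrays 2 and 3 these differences were 0.23 for DDX42 and 0.14 for DDX6 (limma adjusted p = 0.540 and 0.867). The brightest DDX6 probe set, 225549_at, changed by -0.14 and was not called. DDX50 at 1568815_a_at (0.26) and DHX36, a resolver of G-quadruplexes, at 223138_s_at (0.22) completed the 10 probe sets that were higher in the blocked fit.

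On the lower side, DDX54 had the largest decrease among the helicase probe sets at 6 h. Its probe set 225428_s_at read 5.38, 5.15 and 5.04 at 5 µM, against 5.64, 5.56 and 5.55 in untreated cells. The groups were apart by -0.39 (SE 0.101), called with the block and not in the main fit (limma adjusted p = 0.115 without the block and 0.0305 with it). DDX54 was also called without the block after quantile normalization or median centring. The 5 µM mean of 5.19 and the 1 µM mean of 5.3165 were under the signal threshold of 5.3219. This probe set thus entered the test through its untreated arrays, whose mean was 5.58. The other DDX54 probe sets changed by 0.00 and 0.04. DHX40 at 218277_s_at (-0.18), DHX38 (-0.23), DDX59 at 228385_at (-0.15), DDX52 at 212834_at (-0.15) and DDX49 at 210811_s_at (-0.16) were also called lower in the blocked fit and not in the main one. DHX40 was called without the block too when a variance trend was fitted.

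The counts by role are to be read against the shares of all probe sets, 1.56% higher and 1.42% lower, 7.75% and 10.9% with the block and 17.2% at an unadjusted p under 0.05. By role, the 13 measured genes of splicing had 21 tested probe sets at 6 h, of which 2 were called higher and 0 lower for 5 µM over untreated cells (limma; 3 and 1 with the block, 5 at an unadjusted p under 0.05). Both calls were DDX17. Among the helicases of the splicing cycle, the brightest probe set changed by -0.06 for DDX23, -0.13 for DHX16, -0.23 for DHX38, -0.12 for DHX8, 0.02 for DDX46 and 0.07 for DHX15, and DHX38 alone was called, with the block. EIF4A3, the core of the exon junction complex, changed by -0.02, and DDX5, the closest relative of DDX17, by -0.04. DDX39A changed by 0.02, DDX41 by -0.13 and DHX35 by -0.08. The splicing probe sets had a median of -0.02, against -0.02 over all probe sets.

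The 13 measured ribosome assembly helicases had 26 tested probe sets, with 1 called higher (DDX24) and 0 lower (2 and 3 with the block, 4 at an unadjusted p under 0.05), and a median of 0.00. Their brightest probe sets changed by between -0.13 (DDX55) and 0.15 (DDX51). DDX21, which couples ribosomal RNA transcription to processing, changed by 0.06, DDX10 by 0.04, DDX27 by 0.04, DDX31 by 0.06, DDX56 by -0.06 and DHX33 by 0.12, and none of these was called in either fit.

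The 6 measured helicases of translation and messenger RNA fate had 20 tested probe sets, with 1 called higher and 1 lower (5 and 2 with the block, 8 at an unadjusted p under 0.05), and a median of 0.02. The only probe set assigned to EIF4A2 alone, 1556350_a_at, lay between 3.03 and 3.16 at 6 h, below the threshold. The translation helicase eIF4A was therefore not tested by a probe set of its own. The 4 remaining genes had 8 probe sets, with 0 called (2 lower with the block, 2 at an unadjusted p under 0.05). The brightest probe set of DDX1, a subunit of the tRNA ligase complex, changed by -0.08, and that of DDX20, known as gemin 3 of the SMN complex, by -0.13. Fewer expressing cells and less RNA per cell cannot be told apart in these bulk samples.

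A further 10 probe sets named a member together with other genes. For 5 µM over untreated cells they changed by between -0.10 and 0.41 at 6 h, 9 of 10 positive, with the smallest adjusted p at 0.429 (limma, 0 called with and without the block). At 24 h they changed by between -0.39 and 0.21, 2 of 10 positive, and 0 were called. Over all probe sets tested, 10190 of 22461 changes were positive at 6 h and 12128 of 24313 at 24 h.

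The next comparison set the lower dose against untreated cells. At 6 h after exposure to 1 µM cocaine limma called 0 of the 75 helicase probe sets against untreated cells, against 0% of all, with 16 at an unadjusted p under 0.05 (14.3% of all). With the replicate block it called 6 higher, against 5.11% of all, and 9 lower, against 7.43%. These came from 11 genes. The smallest p-values belonged to DHX29, DHX40 and DDX24. DHX29 212649_at read 6.23, 6.13 and 6.25 at 1 µM, against 5.47, 5.64 and 5.80 untreated, a difference of 0.57 (limma adjusted p = 0.145 without the block and 0.0418 with it). DHX29 212648_at read 8.47, 8.53 and 8.59 at 1 µM, against 8.91, 8.80 and 8.80 untreated, a difference of -0.30 (limma adjusted p = 0.154 without the block and 0.0491 with it). The opposite signs of the DHX29 probe sets were thus measured at both doses, which share their untreated arrays.

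DHX40 218277_s_at read 10.88, 11.03 and 10.96 at 1 µM, against 11.23, 11.21 and 11.18 untreated, a difference of -0.25 (limma adjusted p = 0.162 without the block and 0.051 with it). DDX24 200702_s_at read 9.37, 9.37 and 9.26 at 1 µM, against 9.14, 9.00 and 9.05 untreated, a difference of 0.27 (limma adjusted p = 0.173 without the block and 0.0642 with it). In each of these 4 probe sets, which were picked by their p-values, the 1 µM and untreated arrays did not overlap. Of the 75 helicase probe sets, 8 were apart upward and 13 downward, against 1633 and 2283 of all 22461. DDX17 230180_at differed by 0.80 at 1 µM (limma adjusted p = 0.271 without the block and 0.0965 with it) and 213998_s_at by 0.42, which was not called in either fit. With untreated array 1 as the only untreated array, 0 helicase probe sets were called for 1 µM either.

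Between the doses, limma called 0 of the 75 probe sets for 5 µM over 1 µM at 6 h, against 0% of all, and 0 with the block, with 8 at an unadjusted p under 0.05 (6.45% of all). The smallest p-values were those of DDX42, DDX3X and DDX17. DDX42 1559954_s_at read 7.62, 7.71 and 7.76 at 5 µM, against 7.00, 7.35 and 7.25 at 1 µM, a difference of 0.50 (SE 0.125, limma adjusted p = 0.576). DDX3X, which promotes translation of structured messenger RNAs, read 8.58, 8.49 and 8.61 at 212514_x_at in 5 µM arrays, against 7.96, 8.06 and 7.79 in 1 µM arrays, a difference of 0.62 (SE 0.173, limma adjusted p = 0.619). At 201211_s_at it read 7.73, 7.53 and 7.49 in 5 µM arrays, against 7.01, 6.95 and 6.97 in 1 µM arrays, a difference of 0.61 (SE 0.176, limma adjusted p = 0.63).

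In both DDX3X probe sets untreated array 1 (8.73 and 7.77) was above all 5 µM arrays, whereas untreated arrays 2 and 3, the ones with the high retinoic acid response genes, read 8.09 and 7.99 at 212514_x_at and 7.00 and 7.14 at 201211_s_at. In the main fit without the block, no dose of DDX3X was called against untreated cells. With the block 1 µM was lower at 212515_s_at (-0.24, limma adjusted p = 0.0852) and at the brightest probe set 201210_at (-0.18, limma adjusted p = 0.0804). DDX3X was also called without the block for 5 µM over untreated cells when untreated array 1 was left out. DDX17 213998_s_at differed by 0.41 between 5 and 1 µM (SE 0.155, limma adjusted p = 0.716), with every 5 µM array above every 1 µM array.

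**Figure D4:**
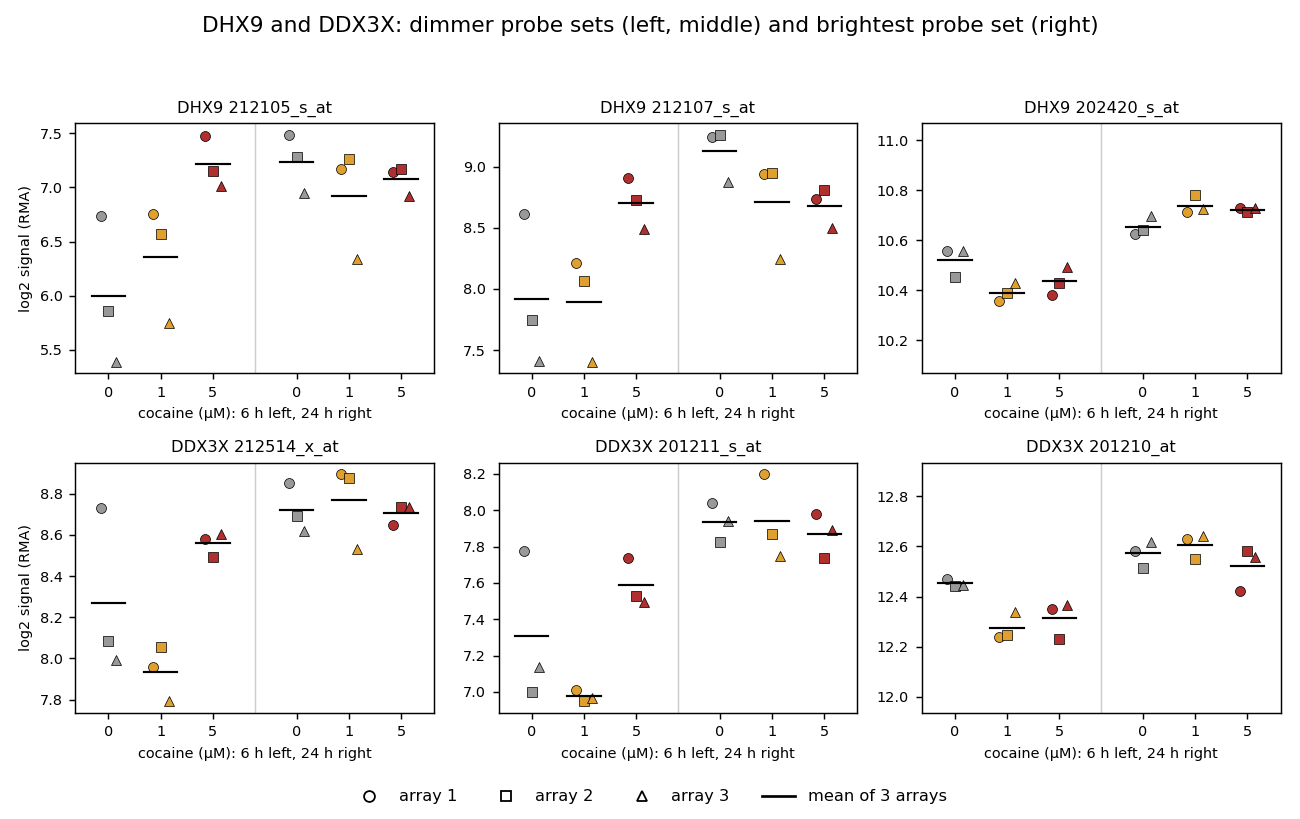
The log2 signal (vertical axes) of 3 probe sets each of DHX9 and DDX3X is shown on each array by cocaine dose in µM (horizontal axes), with 6 h on the left and 24 h on the right of each panel, which were normalized apart. Symbols are array numbers and lines are means of 3 arrays. At 6 h untreated array 1 lies above untreated arrays 2 and 3 in the dimmer probe sets of both genes, at 6.73 against 5.86 and 5.39 for DHX9 212105_s_at.

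At 24 h, 78 probe sets of 36 genes were tested, and limma called 0 of them in each comparison. For 5 µM over untreated cells the share of all 24313 probe sets called was 0.0123%, with 11 helicase probe sets at an unadjusted p under 0.05 (7.2% of all) and 0 called with the block. For 1 µM over untreated cells it was 0% of all, with 2 at an unadjusted p under 0.05 (3.37% of all), and for 5 µM over 1 µM it was 0.00823%, also with 2 (6.12% of all). Both comparisons gave 0 helicase calls with the block too. DHX30 212674_s_at had the smallest p at this time. It read 9.89, 9.77 and 9.86 at 5 µM, against 9.61, 9.58 and 9.71 in untreated cells, a difference of 0.21 (SE 0.057, limma adjusted p = 0.525). Its 1 µM arrays read 9.70, 9.71 and 9.71, below all the 5 µM arrays (difference of 5 over 1 µM 0.13, limma adjusted p = 0.799).

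DDX6 204909_at read 6.21, 6.55 and 6.33 at 5 µM, against 6.61, 6.96 and 6.83 untreated (difference -0.44, limma adjusted p = 0.596). DHX38, the helicase of the second splicing step, read 7.68, 7.66 and 7.67 at 5 µM, against 7.38, 7.50 and 7.53 untreated (difference 0.20, limma adjusted p = 0.597). DDX49 31807_at read 9.52, 9.44 and 9.43 at 5 µM, against 9.35, 9.29 and 9.27 untreated (difference 0.16, limma adjusted p = 0.609). Each of these 3, which were picked by their p-values, had groups that did not overlap, and none passed the test. Of the 78 helicase probe sets, 7 were apart upward and 6 downward, against 1444 and 1096 of all 24313.

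DDX17 at 24 h showed no called change in any of its 5 probe sets. 230180_at read 6.85, 6.01 and 6.45 at 5 µM, against 6.85, 7.07 and 7.14 untreated, so that the groups overlapped at array 1 and the difference was -0.58 (limma adjusted p = 0.614). 213998_s_at read 6.20, 5.82 and 5.87 at 5 µM, against 5.91, 6.06 and 5.95 untreated, a difference of -0.01. 208719_s_at, bright enough to be tested at this time, read 5.63, 5.39 and 5.27 at 5 µM, against 5.31, 5.00 and 5.16 untreated, a difference of 0.28 (limma adjusted p = 0.648). 208151_x_at differed by 0.09 and the brightest, 208718_at, by 0.04. The mean of the other probe sets minus the brightest differed by -0.0937 (exact permutation p = 0.5, n = 3 each). This mean took in 208719_s_at and 208151_x_at, whereas the 1.05 at 6 h rested on 230180_at and 213998_s_at alone. The values at 6 h and 24 h are therefore not like for like.

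For 1 µM over untreated cells at 24 h the smallest p-values were those of DDX6 204909_at (-0.36), DDX31 235436_at (0.13), DDX17 208719_s_at (0.24) and DDX52 212834_at (0.12). DDX31 read 7.23, 7.28 and 7.26 at 1 µM, against 7.16, 7.16 and 7.04 untreated, and DDX52 read 7.65, 7.77 and 7.63, against 7.60, 7.55 and 7.53. For 5 µM over 1 µM they were, besides DHX30, those of DDX20 223331_s_at (-0.14), DDX27 221780_s_at (-0.14) and DDX49 31807_at (0.12). DDX20 read 8.89, 9.01 and 8.91 at 5 µM, against 9.12, 9.01 and 9.11 at 1 µM, and DDX27 read 8.97, 9.17 and 9.01, against 9.21, 9.17 and 9.19. All of these differences were under 0.4 in size and had limma adjusted p-values of 0.79 or more.

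The change at 5 µM over untreated cells itself differed between the times for several helicases. Tested as the change at 6 h minus the change at 24 h, 5 of 75 probe sets were called higher, against 1.97% of all 22364, and 3 lower, against 2.24% (17 in all with the block, against 15.9% of all). DHX29 212649_at had a change of 0.67 at 6 h and -0.27 at 24 h, a difference of 0.93 (SE 0.153, limma adjusted p = 0.00634). DDX24 200702_s_at had 0.40 at 6 h and -0.24 at 24 h (difference 0.64, limma adjusted p = 0.0114), and DDX17 230180_at had 1.37 at 6 h and -0.58 at 24 h (difference 1.95, limma adjusted p = 0.0156). DHX30 204355_at ran the other way, with -0.23 at 6 h and 0.13 at 24 h (difference -0.36, limma adjusted p = 0.0157). These 4 remained past the threshold when any of the 12 arrays was left out. Untreated arrays 2 and 3 of 6 h, which had the high retinoic acid response genes, were not left out together in this comparison. The difference between the ACTB 3′ and 5′ probe sets also turned between the times, with 5 µM minus untreated cells at -0.336 at 6 h and at 0.295 at 24 h. Its part in these results was not tested.

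**Figure D5:**
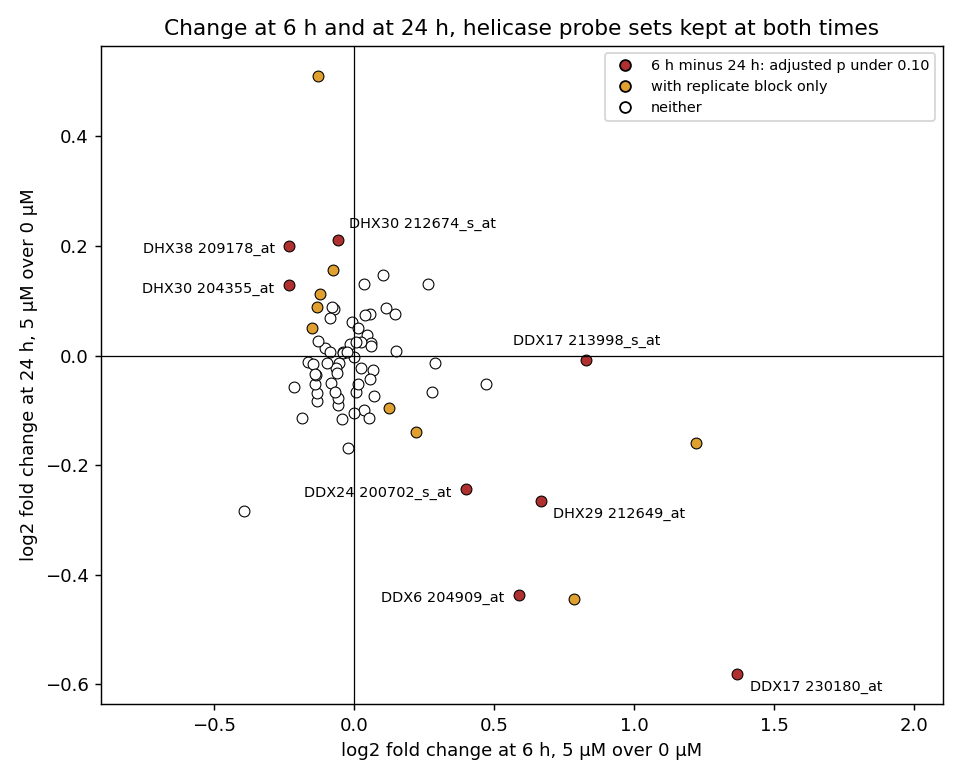
Each point is a helicase probe set kept at both times, with its log2 fold change of 5 µM over 0 µM cocaine at 6 h (horizontal axis) and at 24 h (vertical axis). Red marks a called difference between the times, orange one called only with the replicate block. DDX17 230180_at lies at 1.37 and -0.58, and DHX30 204355_at at -0.23 and 0.13.

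Genes that work with these helicases were read in the same comparison, 5 µM over untreated cells at 6 h, with the same shares of all probe sets as background. Of 18 measured G-patch proteins, several of which activate DEAH-box helicases, SON was called higher at 201085_s_at (0.48, limma adjusted p = 0.0552), while its probe set 226465_s_at was lower with the block only (-0.15, limma adjusted p = 0.0731 with it). The G-patch list had 42 probe sets, 10 positive and 32 negative, with 8 at an unadjusted p under 0.05, and 4 higher and 2 lower with the block. SON is a nuclear speckle protein of splicing. Of 9 measured partners of messenger RNA export, SARNP, which joins the export helicase DDX39B in the TREX complex, was called lower (-0.24, limma adjusted p = 0.0734). The export list had 17 probe sets, with 5 at an unadjusted p under 0.05, and 2 higher and 3 lower with the block. limma called none of the probe sets of 5 further lists. The cap-binding complex eIF4F and its regulators (10 genes measured, 24 probe sets) had 3 at an unadjusted p under 0.05, and 2 higher and 2 lower with the block. Exon junction complex partners (5 genes, 12 probe sets) had 2, and 0 higher and 1 lower with the block. Partners of DDX6 in decay (10 genes, 20 probe sets) had 3, and 0 higher and 3 lower with the block, LSM14A (-0.25), PATL1 (-0.24) and CNOT1 (-0.16). The tRNA ligase and SMN complexes (11 genes, 21 probe sets) had 5, and 1 higher and 0 lower with the block. Other RNA helicases (23 genes, 39 probe sets) had 5, and 1 higher and 3 lower with the block, the lower ones being AQR (-0.21), DHX57 (-0.21) and ASCC3 (-0.26). The eIF4F scaffold EIF4G1 again had probe sets of opposite sign, 0.57 at 208624_s_at and -0.17 at 208625_s_at, both called with the block only (limma adjusted p = 0.0658 and 0.0542 with it).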

How the data were processed

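RNA from 18 pools of SH-SY5Y dishes was hybridized to Affymetrix U133 Plus 2.0 arrays. The authors deposited log2 signals, background-corrected, normalized and summarized by Robust Multichip Average with the affy library, apart for 6 h and 24 h. Robust Multichip Average makes array distributions alike, so a shift shared by all transcripts cannot be seen. Depth does not apply, and the number of arrays limits precision.

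From these values, probe sets with a symbol and a mean above log2(40) over the 9 arrays of a time were tested with limma 3.58.1 in R 4.3.3 (lmFit, eBayes, 3 doses in 1 fit, Benjamini-Hochberg over all probe sets tested, 0.10 as in the study's methods). The scripts were tested on simulated data. Genes were named from the platform annotation: 41097 probe sets had 1 symbol, 1801 several and 11777 none here, and 41043 of the first matched RefSeq GRCh38.p14. Same-numbered arrays correlated in their deviations from group means, at 0.377 to 0.768 over 9 pairs at 6 h and 0.424 to 0.733 over 9 at 24 h. Different numbers gave -0.632 to 0.071 and -0.575 to 0.165. Deviations within a group cancel out, so the negative correlations between different numbers largely follow from the positive same-number ones and are not separate evidence. From the same-number correlations the numbers were taken to pair the arrays, and a fit with the number as a block was added. The members and lists were chosen with earlier results of these data known. Named were probe sets called for 5 µM over untreated cells at 6 h, all tested DDX17 probe sets and up to 4 with the smallest p in each other comparison. Alternatives changed the block, arrays, filter, scaling, variance trend, threshold and probe set choice. Figures were drawn with matplotlib 3.10.9.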

Additional observations from a re-analysis of the deposited data

Results flagged for a closer look

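For 8 helicase probe sets the change at 5 µM cocaine over untreated cells at 6 h minus that at 24 h was past the limma threshold. It was 0.93 for DHX29 212649_at, 0.64 for DDX24 200702_s_at, 1.95 for DDX17 230180_at and 0.84 for DDX17 213998_s_at (limma adjusted p = 0.0479). DDX6 204909_at had 1.03 (limma adjusted p = 0.0896), made of 0.59 at 6 h and -0.44 at 24 h, and its change at 6 h was 0.14 against untreated array 1 alone. DHX30 had -0.36 at 204355_at and -0.27 at 212674_s_at (limma adjusted p = 0.0653), and DHX38 had -0.43 (limma adjusted p = 0.0735), made of -0.23 at 6 h and 0.20 at 24 h. The changes at 6 h and at 24 h had opposite signs in all 8, although that of DDX17 213998_s_at at 24 h was -0.01. Picking probe sets by a large difference between the times itself favours opposite signs. How often they occurred among all called probe sets was not counted. Untreated arrays that stood apart by retinoic acid response genes lie on both sides of this difference, arrays 2 and 3 at 6 h and array 3 at 24 h. Their part in it was not tested.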

How the results depend on the processing

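For 5 µM over untreated cells at 6 h the 5 calls became 18 with the replicate block, 2 at an adjusted p under 0.05, 1 with only the 6 arrays compared, 8 with all 18 arrays in 1 fit, 0 with 1 probe set per gene, between 0 and 11 with an array left out and 0 without untreated arrays 2 and 3. Quantile normalization and median centring gave 5 and 6. Both added DDX54, and quantile normalization lost DHX30. Median centring split the calls of all probe sets into 311 higher and 490 lower, against 351 and 318. For 1 µM over untreated cells at 6 h the 0 calls became 15 with the block, 5 with all 18 arrays and between 0 and 3 with an array left out. The 8 calls on the difference between the times became 17 with the block, 5 at an adjusted p under 0.05, 5 without a signal filter and between 4 and 12 with an array left out. The other comparisons stayed at 0 calls under every alternative run. The DDX17 contrast of other probe sets with the brightest fell to 0.560 when its 2 dimmest probe sets were included. Of the values of named probe sets under the alternatives, 622 kept direction and side of the threshold, 42 lost the call, 10 gained one and 3 changed sign, all for DDX17 213998_s_at at 24 h (-0.01, between -0.128 and 0.0639 with an array left out). The causes were not tested. With 3 arrays a group, the called helicase changes for 5 µM over untreated cells at 6 h were at least 4.13 times their standard error, and changes of up to 3.86 times it were not called, with standard errors between 0.0468 and 0.357. Exact permutation tests could not go below 0.1.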
